A study of Mus musculus with 6 samples.

Results

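Receptors for vasoactive peptides and prostaglandin E2 were read in bladder cells of newborn mice. The set holds 10 receptor genes (Avpr1a, Oxtr, Ednra, Ednrb, Agtr1a, Agtr2, Tacr2, Ptger1, Ptger3 and Ptger4), and every probe set whose platform annotation gives 1 of these symbols alone was taken, without regard to its signal. This gave 16 probe sets for 9 receptors, of 45037 probe sets for 18193 genes. Ednra, the endothelin A receptor, had no such probe set and is not analysed here. The RNA came from male FVB/N mice at postnatal day 2. All mice carried transgenes in which promoters of smooth muscle actins drive fluorescent proteins, gamma actin (SMGA) for EGFP and alpha actin (SMAA) for EYFP. Bladder tissue was digested with enzymes and sorted by fluorescence into cells positive for EGFP and EYFP (double-positive, 3 arrays) and cells positive for EGFP and negative for EYFP (single-positive, 3 arrays). Both populations are labelled as detrusor, the bladder's main muscle, and were defined by the transgenes alone. Each probe set has 1 linear intensity per array, called signal here. The labels say that samples were not pooled and do not say that arrays came from separate animals, so p-values cover only sample-to-sample spread, possibly technical.

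These receptors belong to the G-protein-coupled family and let hormones, nerve peptides and local mediators set the tone of smooth muscle. As background, the vasopressin V1a, oxytocin, endothelin, angiotensin AT1 and tachykinin NK2 receptors couple mainly to Gq, which raises cell calcium through phospholipase C and favours contraction. The prostaglandin E2 receptors divide by coupling. EP1 (Ptger1) raises calcium, EP3 (Ptger3) mainly inhibits adenylyl cyclase through Gi, and EP2 (Ptger2) and EP4 (Ptger4) stimulate it through Gs.

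Promoter sequence is shown for Avpr1a and Ptger3, the receptors of the set that passed the test in each direction. It is also shown for Ptger4, the family member of Ptger3 in the set that was tested and did not pass. The windows are the 250 bases before the annotated start, from RefSeq (build GRCm38.p6), where 8 of the 10 receptors matched by symbol, all but Agtr1a and Ptger1. They lie at chr10:122448249-122448498 on the plus strand for Avpr1a, chr3:157566626-157566875 on the plus strand for Ptger3 and chr15:5244188-5244437 on the minus strand for Ptger4. Capitals mark TATAAA or GGGCGG, searched on both strands, so the printed letters may be the reverse complement.
Avpr1a: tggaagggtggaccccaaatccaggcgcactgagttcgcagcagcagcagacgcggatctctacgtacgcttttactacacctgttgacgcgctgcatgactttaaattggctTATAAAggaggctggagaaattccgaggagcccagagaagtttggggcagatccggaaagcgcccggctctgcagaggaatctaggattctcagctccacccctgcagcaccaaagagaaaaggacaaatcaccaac
Ptger3: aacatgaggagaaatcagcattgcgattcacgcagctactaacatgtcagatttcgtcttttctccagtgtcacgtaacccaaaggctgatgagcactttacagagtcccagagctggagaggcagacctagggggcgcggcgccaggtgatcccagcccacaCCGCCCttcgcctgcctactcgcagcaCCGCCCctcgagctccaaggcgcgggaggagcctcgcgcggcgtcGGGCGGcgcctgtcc
Ptger4: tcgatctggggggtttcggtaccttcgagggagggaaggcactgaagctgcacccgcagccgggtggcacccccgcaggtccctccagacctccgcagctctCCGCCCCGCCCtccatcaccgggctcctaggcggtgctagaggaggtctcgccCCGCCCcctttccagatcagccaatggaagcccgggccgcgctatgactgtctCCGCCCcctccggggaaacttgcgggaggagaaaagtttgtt
Avpr1a held 1 TATAAA, 137 to 132 bases before the start, and no match of the other motif. Its motif was in 12.4% of all 32851 windows of that length. Ptger3 held 3 matches of GGGCGG and Ptger4 held 4, of which a pair share 1 base. GGGCGG was in 32.7% of all windows. The CArG box, the motif of serum response factor, was in 0 of the 8 receptor windows and in 1.47% of all windows. Matches describe these letters only.

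The populations differed widely beyond the receptors. In limma 857 of 13464 genes had an adjusted p under 0.05, of which 267 rose and 590 fell in double-positive arrays. The median of all signals was 147.1 to 199.8 in double-positive arrays, against 152.9 to 198.6 in single-positive ones. Actb control probe sets were brighter at the 3' end than at the 5' end. The excess was 2.78 to 8.02 times in double-positive arrays, against 3.23 to 5.97 times in single-positive ones. Poor RNA quality and the 2 rounds of amplification can both raise it and cannot be told apart here. For Gapdh the excess was 17.2, 17.2 and 23.9 times in double-positive arrays, against 15.2, 11.8 and 20.6 times in single-positive ones. The part of RNA quality or amplification in the results was not tested. Signal for Actg2, the endogenous gene of the EGFP promoter, was lower in the double-positive arrays (log2 fold change -2.54, limma adjusted p = 0.000246). Acta2, that of the EYFP promoter, read differently by probe set. The brightest had a log2 fold change of -0.07, with means of 59801 ± 11165 in double-positive arrays, against 62346 ± 9277 in single-positive ones, and did not pass. Another fell by 4.31 on the log2 scale, with means of 371 ± 92.5 in double-positive arrays, against 7770 ± 1667 in single-positive ones (SD, 3 arrays each; limma adjusted p = 0.000483 over all probe sets). The dimmest gave -3.07 and did not pass (limma adjusted p = 0.0765). Of 12 contractile markers of smooth muscle, 10 fell and 0 rose, with a summed signal of 106444 to 155253 in double-positive arrays, against 322239 to 405684 in single-positive ones, so the labelled cell type was less marked in the double-positive cells. The marker of smallest p was Synm (-4.54). Markers of most other cell types were lower as well. Among leukocyte markers 13 of 15 fell (Mrc1, -2.96), with summed signal of 12095 to 21240 in double-positive arrays, against 92870 to 131625 in single-positive ones. Among urothelium markers 10 of 14 tested fell (Perp, -3.60), with sums of 5355 to 9288 in double-positive arrays, against 30741 to 50020 in single-positive ones. Endothelium markers fell in 6 of 13 (Lyve1, -3.30), with sums of 12045 to 16457 in double-positive arrays, against 43974 to 51740 in single-positive ones. Nerve and Schwann cell markers fell in 6 of 11 (Mbp, -4.80, but -0.45 to -0.13 when 1 single-positive array was left out and another of its probe sets stood for it), with sums of 22438 to 27795 in double-positive arrays, against 30513 to 32786 in single-positive ones. Pericyte and vascular muscle markers fell in 3 of 11 (Mcam, -2.20), with sums of 27357 to 48057 in double-positive arrays, against 59068 to 63487 in single-positive ones. Of 4 mesothelium markers tested, 2 fell, Krt19 (-2.11), which is also among the urothelium markers that fell, and Cpe (-2.60), while Wt1 and Upk3b had 0.22 and 0.12 and did not pass. Leaving out single-positive array 2 or 3 brought that count to 0, and leaving out double-positive array 2 or single-positive array 1 brought it to 1. The sums were 2404 to 13997 in double-positive arrays, against 26391 to 38359 in single-positive ones, of which Cpe alone averaged 6768 in double-positive arrays, against 28566 in single-positive ones. In the fibroblast list 2 of 14 rose, Bmp5 (3.75) and Wnt4 (3.88), both listed with their change already known, and the sums were 508058 to 717008 in double-positive arrays, against 470963 to 577693 in single-positive ones. No listed marker was at 0, which does not show that a marker was expressed. Averages below the filter on dim signal were found in the double-positive arrays for 0 of 15 leukocyte, 1 of 13 endothelium, 4 of 11 nerve and 3 of 15 urothelium markers. The part of these cell types in the receptor results was not tested, and in sorted bulk RNA fewer cells of a type and less RNA per cell cannot be told apart. A fold change sets double-positive against single-positive arrays as a difference of log2(signal + 25.042), a scale that understates changes of dim genes.

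Of the 9 receptors on the array, 8 were bright enough to be tested, and 2 passed the threshold. Avpr1a rose, with a log2 fold change of 3.08, and Ptger3 fell, with -1.41. The remaining 6 (Oxtr, Ednrb, Agtr1a, Agtr2, Tacr2 and Ptger4) did not pass. Across all genes 6.37% passed, 1.98% higher and 4.38% lower. For 5 of the 8 receptors the groups kept apart on every array, against 22.4% of all genes tested. The median log2 fold change was -0.61 over the 8 receptors and 0.02 over all genes tested. With every probe set tested on its own, 2 of 12 receptor probe sets passed, both of Avpr1a and higher, where 3.42% of 27022 probe sets passed (1.01% higher and 2.42% lower). Ptger3 then had an adjusted p of 0.0788 in limma. Groups did not overlap on 6 of the 12, against 18.7% of all probe sets.

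**Figure D1:**
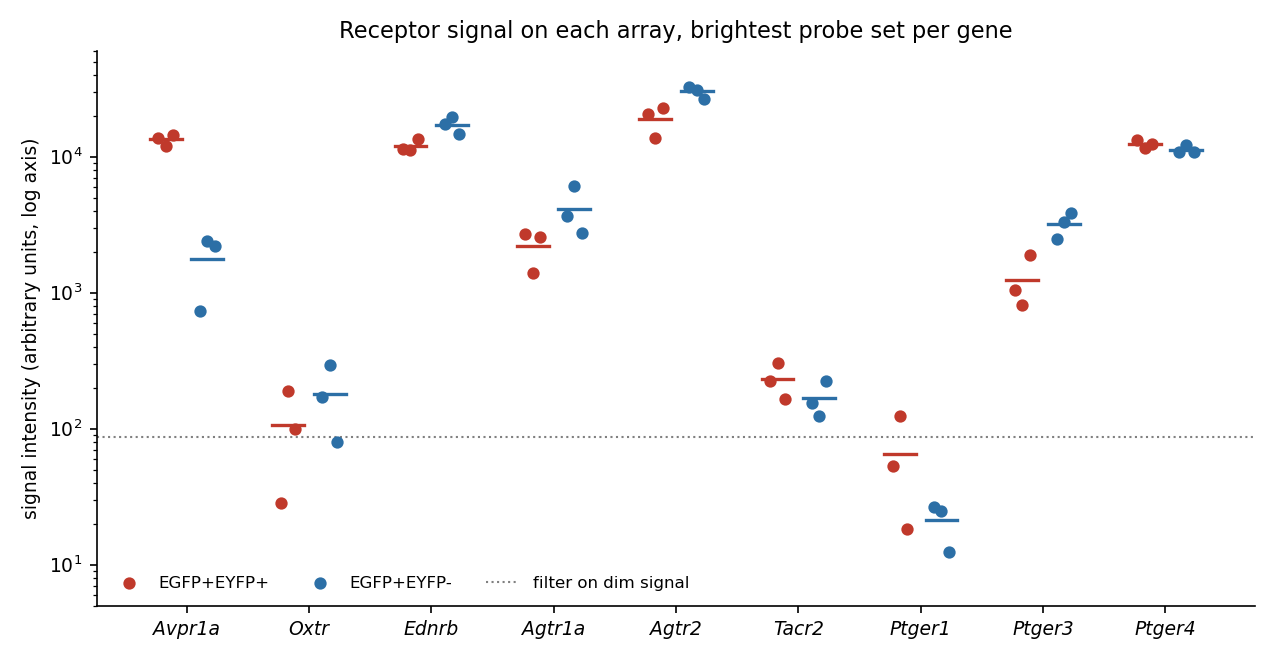
Signal intensity of 9 receptors on each array (vertical log axis, arbitrary units), on the brightest probe set of each gene. Points are arrays, short bars are group means (n = 3), double-positive (EGFP+EYFP+) in red on the left and single-positive (EGFP+EYFP-) in blue on the right, and the dotted line is the filter on dim signal at 87.6. The Avpr1a points of the double-positive arrays sit between 12026 and 14502, above all single-positive points, and Ptger1 lies mostly below the dotted line.

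Avpr1a, the vasopressin V1a receptor through which vasopressin contracts vascular muscle, had the largest log2 fold change of the 8 receptors tested. Its signal was 13770, 12026 and 14502 in the double-positive arrays, against 732, 2382 and 2184 in the single-positive arrays. The lowest double-positive value was above the highest single-positive one, and single-positive array 1 was the lowest of all. Group means were 13433 ± 1272 in double-positive arrays, against 1766 ± 901 in single-positive ones (SD, 3 arrays each), a ratio of 7.61. The log2 fold change was 3.08 (limma SE 0.40, adjusted p = 0.00154), with a 95% interval of 2.19 to 3.96. This gene was 125th of all tested when ordered by p. A second probe set also separated the groups. It read 9989, 8547 and 7402 in the double-positive arrays, against 573, 1523 and 873 in the single-positive arrays, a log2 fold change of 3.19 (limma SE 0.35, adjusted p = 0.00204 over all probe sets). Avpr1a passed the test in all 16 other settings tried, with log2 fold changes of 2.54 to 3.38 and adjusted p of 0.000482 to 0.0118. Of 11 markers of pericytes and vascular muscle, 3 fell and 0 rose in the same arrays, where 4.38% of all genes fell and 1.98% rose. Over the other settings 1 to 4 of them fell and 0 to 1 rose. Ndufa4l2 (2.05), Pdgfrb (0.49) and Cox4i2 (0.14) had positive values and did not pass. The part of these cells in the Avpr1a result was not tested.

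Oxtr, the oxytocin receptor known for uterine contraction, was dim. Its brighter probe set read 28.5, 189.9 and 99.1 in the double-positive arrays, against 171.3, 292.4 and 79.4 in the single-positive arrays. The groups overlapped, and double-positive array 1 and single-positive array 3 were the low ones. The log2 fold change was -0.73 (limma SE 0.60, adjusted p = 0.631), with a 95% interval of -2.07 to 0.61. On the other probe set all 6 values were between 20.4 and 54.9, below the filter on dim signal.

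Ednrb, the endothelin B receptor, binds endothelins on endothelium, glia and neural crest cells as well as on muscle. On its brightest probe set the signal was 11398, 11268 and 13401 in the double-positive arrays, against 17362, 19614 and 14672 in the single-positive arrays. All double-positive values were the lower ones and the groups did not overlap, though the nearest values lay close together. The means were 12022 ± 1196 in double-positive arrays, against 17216 ± 2474 in single-positive ones (SD, 3 arrays each). Its log2 fold change of -0.51 (SE 0.18, 95% interval -0.91 to -0.11) did not pass after adjustment over all genes (limma adjusted p = 0.150). Its dimmer probe sets read differently. The middle one averaged 1045 ± 480 in double-positive arrays, against 1034 ± 409 in single-positive ones, a log2 fold change of -0.01. The dimmest averaged 391 ± 134 in double-positive arrays, against 484 ± 148 in single-positive ones, with -0.30, and the groups overlapped on both (SD, 3 arrays each). In the same arrays 6 of 13 endothelium and 6 of 11 nerve markers fell, where 4.38% of all genes fell. Eng (0.25), Ncam1 (0.49) and Sox10 (0.25) had positive values and did not pass. The part of these cell types in the Ednrb values was not tested.

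Angiotensin II acts through AT1 receptors, which contract muscle and which mice encode by a pair of genes, and through the AT2 receptor, which often opposes AT1 and is known for high levels in fetal mesenchyme. Agtr2, the AT2 gene, had signal of 20430, 13589 and 22600 in the double-positive arrays, against 32670, 31019 and 26686 in the single-positive arrays. The groups did not overlap, and double-positive array 2 was the lowest. Every array placed this probe set among its brightest, between the 96.1 and 98.9 percentile of all probe sets. The log2 fold change was -0.70 (limma SE 0.20, adjusted p = 0.0752), with a 95% interval of -1.15 to -0.25. It missed the threshold here and passed in 4 of 16 other settings, with adjusted p over the 16 from 0.0307, without double-positive array 3, to 0.379.

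Agtr1a, an AT1 gene, read 2712, 1389 and 2557 in the double-positive arrays, against 3633, 6042 and 2732 in the single-positive arrays. The groups did not overlap by a narrow margin, since double-positive array 1 and single-positive array 3 had nearly equal signal. The log2 fold change was -0.87 (limma SE 0.36, adjusted p = 0.244), with a 95% interval of -1.68 to -0.06. The other AT1 gene, Agtr1b, lies outside the set and averaged 2112 in double-positive arrays, against 1704 in single-positive ones, with a log2 fold change of 0.41 that did not pass (limma adjusted p = 0.770). The Agtr1a and Agtr1b messages are near-identical in places, and cross-hybridisation between their probe sets was not tested.

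Tacr2, the neurokinin NK2 receptor through which tachykinins contract bladder muscle, had low signal. It was 223.8, 305.7 and 165.8 in the double-positive arrays, against 153.4, 124.9 and 222.8 in the single-positive arrays. The groups overlapped, and the log2 fold change was 0.41 (limma SE 0.42, adjusted p = 0.703), with a 95% interval of -0.51 to 1.34.

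**Figure D2:**
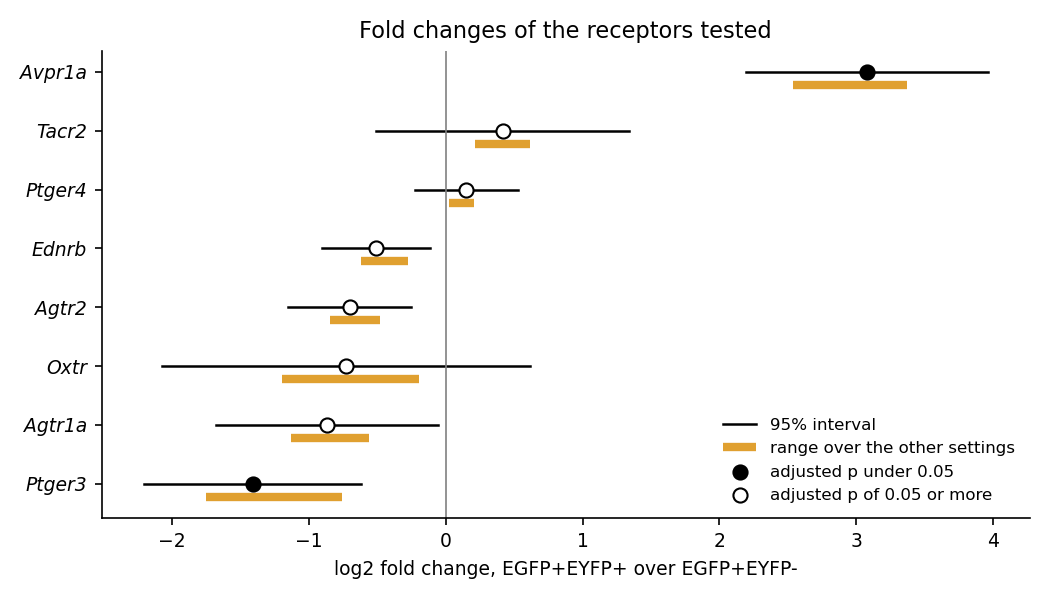
Log2 fold change of the 8 receptors tested (horizontal axis, double-positive over single-positive arrays), with genes down the page by size. Circles are the fitted values, filled where the adjusted p was under 0.05, black lines are 95% intervals and orange bars the range over the other settings tried. Avpr1a lies at 3.08, and Ptger3 at -1.41 is the other filled circle.

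Of the prostaglandin E2 receptors of the set that were tested, Ptger3 passed and Ptger4 did not. Ptger2 (EP2) lies outside the set and had a log2 fold change of 2.67, which did not pass (limma adjusted p = 0.0697). Ptger3 (EP3) had signal of 1040, 805 and 1894 in the double-positive arrays, against 2460, 3305 and 3843 in the single-positive arrays. No double-positive array reached the lowest single-positive value, and double-positive array 3 was nearest to it. Means were 1246 ± 573 in double-positive arrays, against 3202 ± 697 in single-positive ones (SD, 3 arrays each), a log2 fold change of -1.41 (limma SE 0.36, 95% interval -2.21 to -0.62, adjusted p = 0.0440). The value was negative in all 16 other settings, and the call was lost in 10 of them, with adjusted p from 0.00947 to 0.477. Leaving out any 1 of double-positive arrays 1 and 2 or single-positive arrays 1, 2 and 3 ended the call, with log2 fold changes of -1.59 to -1.15 and adjusted p of 0.0654 to 0.181. The other Ptger3 probe set held little signal, 3.0, 93.3 and 5.2 in the double-positive arrays, against 1.9, 5.7 and 127.6 in the single-positive arrays. Only double-positive array 2 and single-positive array 3 exceeded the filter on it, and averaging it with the brighter one brought the log2 fold change to -0.76. In the same arrays 10 of 12 smooth muscle and 13 of 15 leukocyte markers fell, where 4.38% of all genes fell. Urothelium (10 of 14), endothelium (6 of 13) and nerve (6 of 11) markers fell as well, and 0 rose in these lists. The part of these cell types in the Ptger3 values was not tested.

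Ptger4 (EP4) did not pass. Its brighter probe set read 13273, 11662 and 12403 in the double-positive arrays, against 10797, 12128 and 10732 in the single-positive arrays. The groups overlapped within a narrow range. Ptger4's log2 fold change of 0.15 (limma SE 0.17, adjusted p = 0.745) had a 95% interval of -0.23 to 0.52. On the other Ptger4 probe set double-positive array 1 stood high at 896.5, and the other 2 double-positive arrays read 271.9 and 250.0, against 439.8, 340.0 and 523.6 in the single-positive arrays. That probe set had a log2 fold change of -0.10 (limma adjusted p = 0.969 over all probe sets).

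Ptger1 (EP1) was not tested because both of its probe sets were dim. The brighter one read 53.6, 123.6 and 18.4 in the double-positive arrays, against 26.7, 24.8 and 12.4 in the single-positive arrays. The other read 136.0, 47.6 and 10.1 in the double-positive arrays, against 15.3, 4.3 and 67.3 in the single-positive arrays. Both overlapped between the groups, and whether the gene was expressed was not detectable from them.

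**Figure D3:**
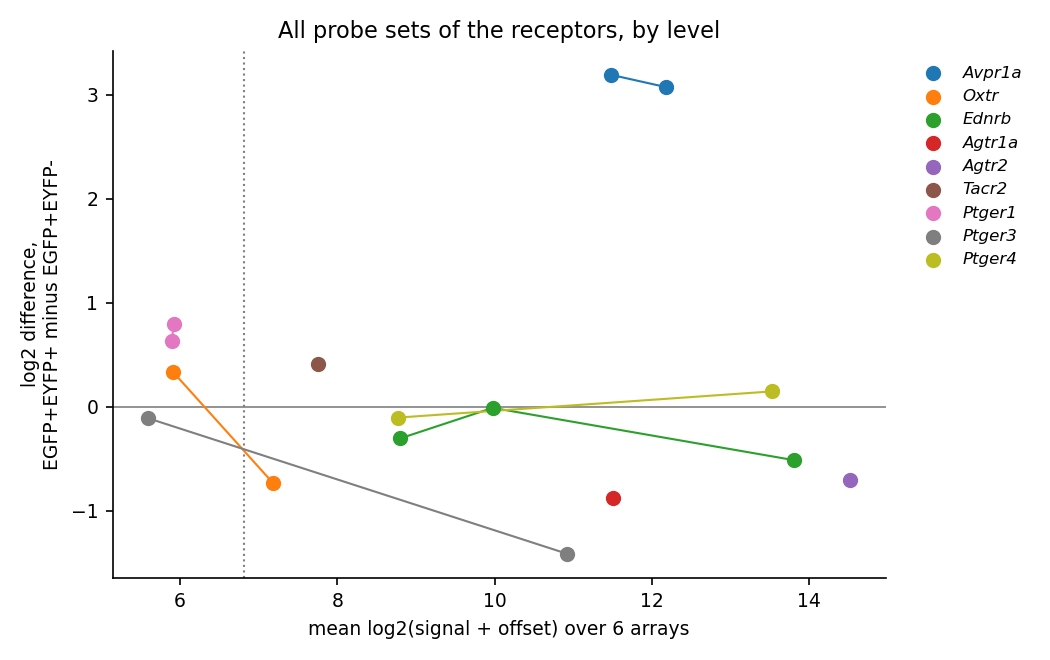
All 16 probe sets of the 9 receptors, by mean log2 signal over 6 arrays (horizontal axis) and log2 difference of double-positive minus single-positive arrays (vertical axis). Lines join probe sets of 1 gene and the dotted line is the filter at 6.82. Both Avpr1a probe sets lie near 3. The dimmer probe sets of Ednrb, Ptger3, Ptger4 and Oxtr gave other values than the brightest one of their gene. Those of Ptger3 and Oxtr lie below the filter, and differences between probe sets were not tested.

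Unequal change within a family was tested on the per-array log2 difference between 2 receptors, for the 3 pairs with both members bright enough. Ptger3 minus Ptger4 averaged -3.38 ± 0.60 in double-positive arrays, against -1.82 ± 0.33 in single-positive ones (SD, 3 arrays each). The change of -1.56 had an exact two-sided permutation p of 0.1, the smallest that 3 against 3 allows, and 0.15 after adjustment over the 3 pairs. With the mean over probe sets the change was -0.78 (exact permutation p = 0.5). Avpr1a minus Oxtr changed by 3.81, with the same exact permutation p of 0.1 and adjusted 0.15. Agtr1a minus Agtr2 changed by -0.17 (exact permutation p = 0.9), less than the spread between single-positive arrays. The groups did not overlap for Ptger3 minus Ptger4 or Avpr1a minus Oxtr. How often groups keep apart on differences between 2 genes was not tested. The smallest p of this permutation test, 0.1, lies above the threshold of the gene tests. The test therefore could not decide whether change was unequal within a family. Oxtr was dim and its groups overlapped, so Avpr1a minus Oxtr mostly restates the Avpr1a log2 fold change of 3.08.

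The ligands, enzymes and partners of these receptors were read from 4 lists, chosen for their roles with earlier results known. Of 108 listed genes 84 were tested, and 9 passed (5 rose and 4 fell), where 6.37% of all genes passed. The median log2 fold change was 0.07 over the 84.

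Among peptide ligands and their processing enzymes, 2 of 15 rose and 0 fell, where 1.98% of all genes rose and 4.38% fell. Ece1, the protease that makes active endothelins from their precursors, read 9334, 17138 and 7901 in the double-positive arrays, against 4077, 2803 and 2752 in the single-positive arrays. All double-positive values were higher (log2 fold change 1.77, limma SE 0.31, adjusted p = 0.00731), and the mean over its probe sets did not pass (1.15, limma adjusted p = 0.108). Enpep, aminopeptidase A, which trims angiotensin II, read 43806, 35728 and 39187 in the double-positive arrays, against 5711, 13646 and 15445 in the single-positive arrays. Its log2 fold change was 1.89 (limma SE 0.32, adjusted p = 0.00610), again with no overlap. The endothelin ligands did not pass. Edn1 averaged 74.5 ± 49.4 in double-positive arrays, against 195 ± 35.9 in single-positive ones, and Edn3 averaged 390 ± 334 in double-positive arrays, against 902 ± 176 in single-positive ones (SD, 3 arrays each), and neither passed (limma adjusted p = 0.184 for Edn1 and 0.168 for Edn3). The Edn3 value was unstable. It was -2.06 and passed without double-positive array 1 (limma adjusted p = 0.0207), did not pass without double-positive array 2 (limma adjusted p = 0.381) and was -0.08 with the mean over its 4 probe sets (limma adjusted p = 0.941), of which the other 3 gave 0.24, 0.76 and 0.12. Edn2 had a log2 fold change of -0.02. Agt, the angiotensin precursor, had one of 1.45 (limma SE 0.46, adjusted p = 0.105), and did not pass. It was 1.83 without double-positive array 3 (limma adjusted p = 0.0358) and 1.02 without double-positive array 2 (limma adjusted p = 0.255), and it passed with array weights (limma adjusted p = 0.0470). Ace, the converting enzyme, had 0.11. Tac1, the precursor of substance P and neurokinin A, had -1.61 (limma SE 0.73, adjusted p = 0.288). Avp and Oxt, the genes of vasopressin and oxytocin, had 0.16 and 0.02, and neither passed. Ren1, the renin gene, had no probe set with its symbol alone and is not analysed here.

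Prostaglandin synthesis and removal gave 1 rise and 0 falls among 15 genes. That is 6.67%, near the 6.37% of all genes that passed. Ptges, the inducible synthase that makes prostaglandin E2, read 1875, 2503 and 1324 in the double-positive arrays, against 406, 470 and 406 in the single-positive arrays. The groups were well apart (log2 fold change 2.05, limma SE 0.34, adjusted p = 0.00566), and Ptges passed in all 16 other settings. Its other probe sets gave 1.22, which did not pass, and 2.63, which did (limma adjusted p = 0.144 and 0.0221 over all probe sets). Ptges was higher in the same arrays in which Ptger3 was lower, and a link between them was not tested. Ptgs2, the inducible cyclooxygenase upstream, averaged 5559 ± 3375 in double-positive arrays, against 3120 ± 982 in single-positive ones (SD, 3 arrays each) and did not pass (log2 fold change 0.71, limma SE 0.42, adjusted p = 0.454). Ptgs1 had no probe set with its symbol alone and is not analysed here.

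Of 23 related receptors outside the set, 2 rose and 2 fell, where 1.98% of all genes rose and 4.38% fell. Bdkrb2, the bradykinin B2 receptor, a Gq-coupled receptor of smooth muscle and endothelium, read 2948, 3588 and 2970 in the double-positive arrays, against 454.6, 391.5 and 360.6 in the single-positive arrays. Both groups were tight, and the log2 fold change was 2.90 (limma SE 0.29, adjusted p = 0.000478). Calcrl, the calcitonin receptor-like receptor, rose (2.51, limma SE 0.40, adjusted p = 0.00448). Ramp1, the membrane protein that pairs with Calcrl to form the receptor for the vasodilator peptide CGRP, fell (-1.82, limma SE 0.39, adjusted p = 0.0192). The related Ramp2 and Ramp3 had 0.44 and -0.29 and did not pass (limma adjusted p = 0.414 and 0.827). Ramp2 averaged 6477 in double-positive arrays, against 4698 in single-positive ones. Calcrl averaged 7391 ± 1989 in double-positive arrays, against 1390 ± 775 in single-positive ones, while Ramp1 averaged 494 ± 221 in double-positive arrays, against 1692 ± 167 in single-positive ones (SD, 3 arrays each). Adcyap1r1, the receptor of the peptide PACAP, fell (-2.52, limma SE 0.32, adjusted p = 0.00153), from the probe set that stands for it, while a dimmer one gave -0.09. Averaged over all probe sets of each gene, Bdkrb2 still passed and Calcrl, Ramp1 and Adcyap1r1 did not (1.27, -0.98 and -0.87). Ramp1 also missed the threshold without double-positive array 1 or any 1 single-positive array (limma adjusted p of 0.0522 to 0.0893).

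Of 31 G proteins and effectors, 0 rose and 2 fell. That is 6.45%, near the 6.37% of all genes that passed. Plcb4, a phospholipase C isoform activated by Gq, read 18552, 14907 and 24439 in the double-positive arrays, against 45597, 42490 and 40087 in the single-positive arrays (log2 fold change -1.17, limma SE 0.18, adjusted p = 0.00415). Its signal was lower in each double-positive array than in any single-positive array. Plcb4 did not pass with median centring (-1.12, limma adjusted p = 0.0600) or with the mean over probe sets (-1.01, limma adjusted p = 0.0851). Its other probe sets above the filter gave -3.01 and -1.68 (limma adjusted p = 0.0179 and 0.160 over all probe sets). Both averaged below the filter in double-positive arrays, at 26.2 and 63.5, against 417 and 228 in single-positive ones. They were kept only through their single-positive signal, which favours a fall, so they are no separate support. The rest were below the filter, with 40.2 and 7.2 in double-positive arrays, against 8.9 and 6.5 in single-positive ones. Adcy5, an adenylyl cyclase isoform, averaged 1200 ± 745 in double-positive arrays, against 5277 ± 350 in single-positive ones (SD, 3 arrays each; log2 fold change -2.40, limma SE 0.51, adjusted p = 0.0193). Without any 1 of the 3 single-positive arrays Adcy5 missed the threshold (limma adjusted p of 0.0632 to 0.0802, log2 fold changes of -2.45 to -2.35). It also missed it with no variance trend (limma adjusted p = 0.0631) and with the mean over probe sets, where the value was -1.04 (limma adjusted p = 0.150). The median of the list was 0.04.

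**Figure D4:**
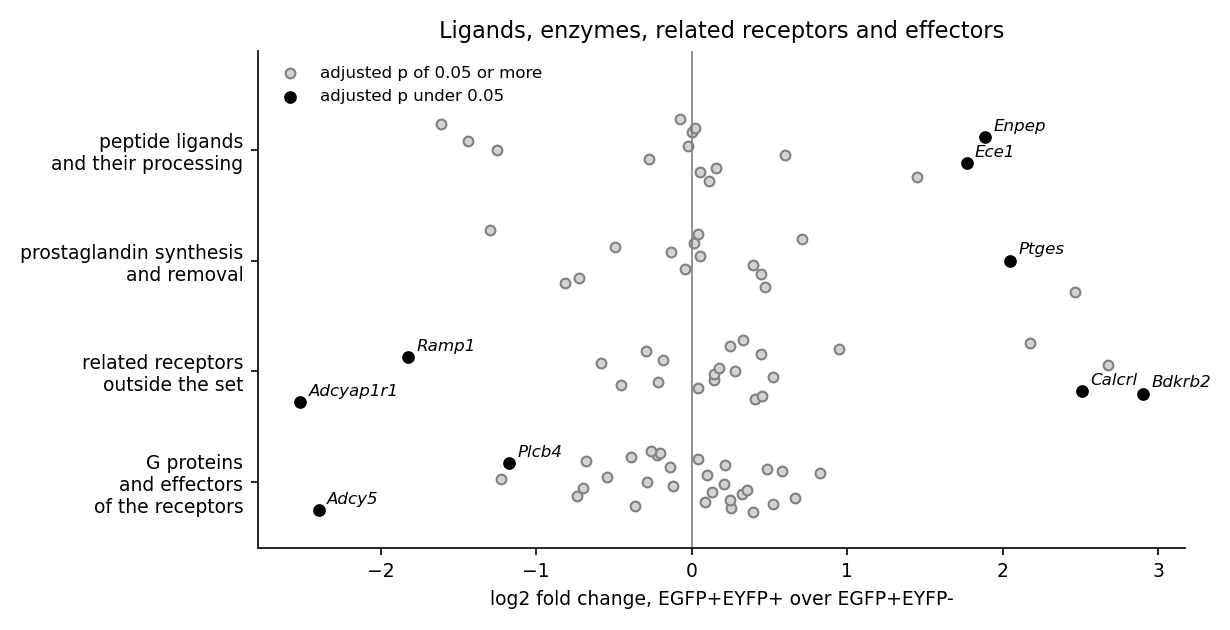
Log2 fold change (horizontal axis, double-positive over single-positive arrays) of 84 tested genes in 4 lists, 1 point per gene, with black points for an adjusted p under 0.05. Names mark the 9 that passed, from Bdkrb2 at 2.90 to Adcyap1r1 at -2.52, and most grey points lie near 0.

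Genes with the profile most like that of a receptor were found by the root mean square difference between centred log2 values over the 6 arrays, among 12787 tested genes. For Avpr1a these were Cntn1, a neural adhesion protein (0.249), Hhip, a membrane inhibitor of Hedgehog ligands (0.289), and Ndp, a secreted ligand of Frizzled-4 receptors (0.329). Hhip, for one, read 16985, 12510 and 14786 in the double-positive arrays, against 579, 2516 and 1464 in the single-positive arrays, with array 1 the lowest single-positive one, as for Avpr1a. For Ptger3 they were Gpt2, an alanine aminotransferase (0.168), Ccpg1os (0.180) and Ppp1r9a, a neuronal actin-binding protein (0.183). The 6 arrays form 2 groups, and these genes had group differences of 3.22, 3.48 and 3.39 for the Avpr1a set and -1.58, -1.33 and -1.44 for the Ptger3 set. Of these 6 genes, 5 passed the test and Ccpg1os did not (limma adjusted p = 0.175), where 6.37% of all genes passed. They were picked for likeness to a receptor that had passed. The choice itself favoured such differences, so the count is no separate result. Ccpg1os passed with array weights and without double-positive array 3 (limma adjusted p = 0.0437 and 0.0390). Gpt2 and Ppp1r9a each missed the threshold without single-positive array 2 or 3 (limma adjusted p of 0.0580 to 0.0658) and with the mean over probe sets, which gave -1.04 for Gpt2 and -0.50 for Ppp1r9a.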

How the data were processed

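RNA from sorted bladder cells was measured with 6 MOE430 arrays (Affymetrix), each for a single sample. RNA was, per the labels' protocols, amplified in 2 rounds, which favours the 3' end of transcripts. The deposited table holds linear signal intensity per probe set. The submitters' processing notes name GCOS, without its algorithm or scaling target. Without the lowest and highest 2% of values, each array averaged 1500.01, which shows the deposited intensities to be scaled. No detection calls were used, and the number of arrays limits the precision.

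Groups follow the titles. Of 45037 probe sets, 34945 had 1 gene symbol, 932 several and 9160 none. Symbols were checked by Entrez identifier (34741 matched, 0 changed). Array medians differed 1.36-fold, and arrays were not rescaled. Signals became log2(signal + 25.042), where 25.042 was the 20th percentile of all signals. Each gene was represented by its brightest probe set and kept if its mean exceeded the 40th percentile (6.82, a signal of 87.6). The test was two-sided limma 3.58.1 under R 4.3.3 (lmFit, then eBayes with trend), with p-values adjusted by Benjamini and Hochberg's method over 13464 genes or, for single probe sets, over 27022 probe sets, at a threshold of 0.05. The procedure was tested on simulated data. Receptor pairs were compared with exact permutation tests. Alternatives were other normalizations, offsets, filters and variance models, the replicate number as a block, the mean over probe sets, and leaving out each array. No 2 arrays shared more than 13 identical values. The labels give no scan date.

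The receptors and lists were chosen with earlier results of these data known. Named genes were all receptors, the actin genes, up to 5 members of a pathway list in each direction past the threshold, 12 ligand and synthesis genes, the marker of smallest p in each list, and the 3 genes most like each receptor past the threshold. Agtr1b, Wnt4, Cpe, Wt1, Upk3b, Csf1r, Eng, Ncam1, Sox10, Ndufa4l2, Pdgfrb, Cox4i2, Ramp2, Ramp3 and the genes of the closing observations were named after their values were seen.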

Additional observations from a re-analysis of the deposited data

How the results depend on the processing

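The count of receptors past the threshold, 2, was 1 with median centring, with no filter, with no variance trend and with the mean over probe sets, and 1 to 3 without 1 array. Avpr1a passed in each of the 16 settings, and Ptger3 in 6 of 16. The receptor probe sets past the threshold numbered 2 to 3. All genes past the threshold numbered 1345 with array weights, against 857, and 466 to 1084 without 1 array (563, 486 and 466 without single-positive arrays 1, 2 and 3). The 9 pathway genes became 14 with array weights, 3 with the mean over probe sets and 8 to 11 without 1 array. The replicate number as a block gave 3 receptors past the threshold, with Agtr2 added (adjusted p = 0.0413). Deviations of same-numbered arrays correlated at 0.190, 0.0511 and 0.0242, so the numbers were not taken as pairs. Agtr2 also passed with quantile normalization (-0.74), with array weights (-0.62) and without double-positive array 3 (-0.85).

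Signs turned for values that did not pass. Without 1 array the difference of Agtr1a minus Agtr2 ranged from -0.34 to 0.12, that of Avpr1a minus Oxtr from 3.23 to 4.46 and that of Ptger3 minus Ptger4 from -1.91 to -1.35, and the last was -0.78 with the mean over probe sets. The middle Ednrb probe set gave 0.063 with quantile normalization and 0.046 with median centring, and -0.35 to 0.28 without 1 array. The dimmer Ptger4 probe set gave 0.43 with array weights and -0.67 to 0.21 without 1 array. Edn2 gave 0.029 with quantile normalization and 0.031 with median centring, and -0.51 to 0.34 without 1 array, Oxt -0.10 with array weights and -0.13 to 0.26, and Ace -0.31 with the mean over probe sets and -0.21 to 0.49. Avp ranged from -0.13 to 0.39 and Acta2 from -0.20 to 0.063 without 1 array, and Acta2 fell by the mean over its probe sets (-2.48). Without any 1 single-positive array another Mbp probe set stood for that gene and gave -0.45 to -0.13. Quantile normalization and median centring gave a median over all genes of 0.039 and 0.075, against 0.021. Dim signal limits Oxtr, Tacr2 and Ptger1.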

Other observations

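Several genes of the same pathways had large differences that missed the threshold, and are given here because of their size, chosen after their values were seen. Ptger2, the EP2 receptor, which like EP4 couples to Gs, read 10640, 10620 and 11931 in the double-positive arrays, against 328, 4426 and 3295 in the single-positive arrays. The groups did not overlap, and single-positive array 1 was far below the other 2. The log2 fold change was 2.67 (limma SE 0.75, adjusted p = 0.0697), and it passed without single-positive array 1 (1.53, limma adjusted p = 0.00914) or 2 (3.35, limma adjusted p = 0.0461). Abcc4, an exporter of prostaglandins and cyclic nucleotides, read 4633, 6954 and 3405 in the double-positive arrays, against 302, 692 and 2812 in the single-positive arrays (log2 fold change 2.46, limma SE 0.65, adjusted p = 0.0530). Vipr1, a receptor of vasoactive intestinal peptide, read 421, 506.5 and 337 in the double-positive arrays, against 13.7, 112 and 149 in the single-positive arrays (log2 fold change 2.18, limma SE 0.57, adjusted p = 0.0508). Each of these 3 genes passed in 5 other settings and not in the rest. Vipr1 was tested in 14 of the 16 settings and was too dim to be tested in the others. Its single-positive average lay below the filter on dim signal. The other Vipr1 probe set averaged 9.96 in double-positive arrays, against 11.4 in single-positive ones. Abcc4 passed without single-positive array 3 (3.31, limma adjusted p = 0.00579) and had 1.76 without single-positive array 1 (limma adjusted p = 0.129). Vipr1 had 1.51 without single-positive array 1 (limma adjusted p = 0.116). Tbxas1, thromboxane synthase, had a log2 fold change of -1.30 (limma SE 0.41, adjusted p = 0.103), and passed with array weights (limma adjusted p = 0.0252) and without double-positive array 3 (-1.61, limma adjusted p = 0.0420), with values of -1.61 to -1.08 over the 16 settings. Thromboxane synthase is also known as a gene of macrophages, whose markers Mrc1 and Csf1r had -2.96 and -2.68 in the same arrays, and their part in it was not tested.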
